A study of Mus musculus with 4 samples.

Results

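The 8 genes followed here, of 28692 genes counted, are commonly read as transcriptional responses to WNT/β-catenin signalling and were measured in stromal cells of the embryonic mouse intestine: Axin2, Nkd1, Nkd2, Notum, Znrf3, Lef1, Tcf7 and Sp5. They were listed by name and not by a measured value, though with earlier results of these data known, and all 8 have an entry in each of the 4 count tables. Each was measured in 4 libraries, 2 of small intestine (SI) and 2 of large intestine, the cecum among it (LI). All embryos were untreated, at embryonic day E12.5, and of a strain labelled EYFP (C57BL/6), in which cells carry a yellow fluorescent protein. Embryos were pooled within each of 2 experiments before live YFP+ Itgb1+ cells lacking CD45, Ter119, CD31 and EpCAM were sorted, so a library is a pool and not 1 embryo. The tissue label of the samples speaks of lamina propria, and stage and region are taken here from the sample titles. A 10x kit for either the 3′ or the 5′ end of transcripts was used, and the labels do not tie a kit to a library.

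WNT proteins bind Frizzled receptors with Lrp5 or Lrp6, which stabilises β-catenin, and β-catenin then acts on DNA through transcription factors of the TCF/LEF family. Many genes switched on in this way restrain the pathway. Axin2 is a scaffold of the complex that destroys β-catenin, Nkd1 and Nkd2 bind Dishevelled inside the cell, Notum is a secreted enzyme that removes the lipid from WNT proteins, and Znrf3 is a membrane ubiquitin ligase that clears Frizzled from the surface. Lef1 and Tcf7 are themselves TCF/LEF factors, and Sp5 is a zinc finger transcription factor. In the gut, mesenchymal WNT and R-spondin signals are known for sustaining the epithelium, while the genes described here report reception of a signal in the cell that expresses them.

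In GENCODE M21 (GRCm38, equal to mm10) all 8 are protein coding genes. Axin2 (ENSMUSG00000000142) lies on the plus strand of chromosome 11 from 108920349 to 108950783. Nkd1 (ENSMUSG00000031661) is on chromosome 8 from 88521354 to 88594884, Lef1 (ENSMUSG00000027985) on chromosome 3 from 131110471 to 131224356 and Sp5 (ENSMUSG00000075304) on chromosome 2 from 70474923 to 70477729, all on the plus strand. Nkd2 (ENSMUSG00000021567) is on chromosome 13 from 73818534 to 73847631, and Znrf3 (ENSMUSG00000041961, 5276324 to 5444847), Tcf7 (ENSMUSG00000000782, 52252371 to 52283014) and Notum (ENSMUSG00000042988, 120653788 to 120661175) are on chromosome 11, all on the minus strand. None of the 8 shared an exon with another counted gene on its own strand. Exons of Axin2, Lef1 and Notum overlapped counted genes on the opposite strand (Gm11670, Gm43352, and Myadml2os with Notumos), and whether reads of the 2 strands were kept apart in counting is not given in the sources used here.

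TCF/LEF factors read a short DNA word, so upstream sequence is shown for 2 of the genes: Sp5, which was hardly detected, and Axin2, on which the comparison of regions turns. RefSeq start sites (GRCm38.p6) gave a 250-base window upstream of at least 1 start for 6 of the 8 genes, in 10 windows. They were searched on both strands for the word CTTTGAA, the word CTTTGAT, the word CTTTGTA and the word CTTTGTT. Matches are in capitals in the following sequences, which are written 5′ to 3′ on the gene's strand, the first at chr2:70474673-70474922 and the second at chr11:108920099-108920348, both on the plus strand.
Sp5: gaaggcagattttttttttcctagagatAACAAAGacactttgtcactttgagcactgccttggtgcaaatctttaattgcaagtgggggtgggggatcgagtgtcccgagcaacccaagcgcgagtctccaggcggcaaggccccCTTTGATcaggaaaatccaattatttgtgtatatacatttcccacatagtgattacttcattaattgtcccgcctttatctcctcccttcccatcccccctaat
Axin2: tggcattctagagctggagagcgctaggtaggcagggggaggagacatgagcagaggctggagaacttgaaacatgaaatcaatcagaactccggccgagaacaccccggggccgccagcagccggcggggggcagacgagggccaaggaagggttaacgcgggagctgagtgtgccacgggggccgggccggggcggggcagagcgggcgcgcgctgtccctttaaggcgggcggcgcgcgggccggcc

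The Sp5 window held 2 matches, a number reached in 1.43% of the 32851 windows of all genes, while 14.8% of them held at least 1. Of the 4 Lef1 windows 1 held 1 match, and the Axin2, Nkd1, Nkd2 and Tcf7 windows held none of these letters. These are matches of letters in a short window and say nothing of binding.

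After removal of low-quality cells and likely doublets, 22094 cells remained, between 4603 and 6247 per library. Depth was lowest in LI replicate 1, where the median cell held 4220.5 UMIs (unique molecules) against 8382 to 8829 in the other 3. Between 8 and 15 cell barcodes were shared by any pair of libraries, at most 0.221% of the smaller library. Cells were clustered without the 8 genes and without other WNT pathway genes, and clusters were grouped by markers into other mesenchyme (11300 cells, 51.1%), smooth muscle cells (SMC; 6722, 30.4%), mesothelial cells (1317, 5.96%) and neural cells (1246, 5.64%). A remaining 1509 cells (6.83%), in a cluster led by histone, Epcam and cell division genes and in one led by Pf4, Afp and globin genes, met no definition and were left out. Summed markers of mesothelium lay between 1673 and 2479 CPM (counts per 1000000 UMIs) in the mesothelial cells and at 38.5 CPM or less in the other 3 groups. Smooth muscle markers were less sharply divided, at 1754 to 11424 CPM in SMC and 1228 to 2241 CPM in other mesenchyme, with LI replicate 1 lowest in both, and at a finer clustering (resolution 0.6) SMC were 2 clusters of 3425 and 749 cells. Levels below are UMIs summed over the cells of a group in a library, in CPM, without division by gene length, so they compare cells and not genes.

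Axin2 was highest in mesothelial cells and lowest in neural cells. In mesothelial cells its level was 22.3 and 22.7 CPM in the LI libraries, and 41.0 and 44.3 CPM in the SI libraries. In other mesenchyme it was 13.0 and 15.8 CPM (LI) and 12.2 and 10.8 CPM (SI). Each mesothelial sum lay above each sum of other mesenchyme. Against other mesenchyme, with the library as a block, Axin2 was higher in mesothelial cells by 1.28 ± 0.22 (log2 difference ± SE, 4 libraries; edgeR quasi-likelihood test, adjusted p = 0.00167). It was lower in neural cells by the same test (-1.38 ± 0.19, adjusted p = 0.00101), where the 4 sums lay between 2.96 and 6.64 CPM. In SMC Axin2 stood at 9.52 to 12.45 CPM, and its log2 difference from other mesenchyme was -0.12 ± 0.12 (adjusted p = 0.515). Both called differences were called in each of the 11 alternative settings.

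Nkd1 had another order, with the highest levels in SMC. Its SMC sums were 23.2 and 45.0 CPM in LI and 42.02 and 61.3 CPM in SI. In other mesenchyme the sums were 17.5 and 24.6 CPM (LI) and 22.7 and 23.9 CPM (SI). Nkd1 was higher in SMC than in other mesenchyme within each of the 4 libraries, although the lowest SMC sum lay inside the range of other mesenchyme. The log2 difference was 0.96 ± 0.13 (edgeR, adjusted p = 0.00232). Neural cells were lowest, with 2.60 to 4.31 CPM and a log2 difference of -2.74 ± 0.17 (edgeR, adjusted p = 2.08e-05). Mesothelial cells, with 13.7 to 20.3 CPM, were slightly below other mesenchyme (-0.35 ± 0.12, edgeR, adjusted p = 0.0433), a call that was lost in 7 of 11 alternatives. The neural and SMC differences of Nkd1 were called in all 11.

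Nkd2, the second Naked cuticle gene, was low everywhere, between 2.06 and 10.6 CPM. It was lower in SMC than in other mesenchyme (-0.62 ± 0.14, edgeR, adjusted p = 0.0174), which was lost in 5 of 11 alternatives. Its neural difference was 0.42 ± 0.24 (edgeR, adjusted p = 0.191) and was -0.04 in cells in the G1 phase alone. LI replicate 1 had the highest Nkd2 level in 4 of 4 cell groups.

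Notum was rare, with 105 UMIs in all cells together, but unevenly spread. Mesothelial cells held 3 and 6 Notum UMIs in the LI libraries and 6 and 12 in the SI libraries, or 0.999, 2.39, 2.70 and 7.60 CPM. Other mesenchyme stood at 0.137 to 0.720 CPM and SMC at 0.134 to 1.06 CPM. No Notum UMI was counted in neural cells among 17994899 UMIs, which allows up to 0.167 CPM. Pooled over libraries, the mesothelial level was 2.90 CPM (95% exact Poisson interval 1.91 to 4.22, counting error only). Taken as exact, this value is 17.4-fold that limit of 3 UMIs over the neural group. The low end of its interval and the level of LI replicate 1 lie closer to the limit. Notum was at 0 in 5 of 11 clusters, and against other mesenchyme its counts in mesothelial cells did not pass the filter on low counts. With no filter the log2 difference was 2.53 ± 0.50 (edgeR, adjusted p = 0.000543). Fits in which Notum passed a filter through the mesothelial sums alone are marked where they are given and are not used as support. The SI values in mesothelial cells lay above the LI values. This was not tested in the main fit and was not called with no filter. The 4 alternatives that tested it gave log2 differences of 1.10 to 2.25. Apart from the fit with no filter, Notum entered them through SI replicate 2 alone, so they are a description only.

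Znrf3 was found in all 4 groups, and none of its differences from other mesenchyme was called. Its mesothelial sums were 7.33 and 19.9 CPM in LI and 10.8 and 17.1 CPM in SI. The log2 difference from other mesenchyme was 0.43 ± 0.18 in mesothelial cells (edgeR, adjusted p = 0.0930) and -0.37 ± 0.16 in neural cells (adjusted p = 0.0870). The mesothelial value was called in 2 of 11 alternatives, at 0.45 with doublets kept (adjusted p = 0.0390) and 0.93 with thinned sums (adjusted p = 0.00932), and was 0.23 without LI replicate 2. LI replicate 1 had the lowest Znrf3 level in 4 of 4 groups, which left a spread between the LI replicates wider than that between regions.

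Of the transcription factors, Lef1 was called in mesothelial and neural cells against other mesenchyme, and Tcf7 in none of the groups. Lef1 was at 5.66 and 5.97 CPM (LI) and 4.51 and 6.97 CPM (SI) in mesothelial cells. In other mesenchyme it was at 2.32 and 0.895 CPM (LI) and 0.879 and 1.18 CPM (SI). Lef1 was thus higher in mesothelial cells in every library, by a log2 difference of 2.18 ± 0.33 (edgeR, adjusted p = 0.000766). It passed the filter on low counts through its mesothelial sums, since not all sums of other mesenchyme were high enough. With no filter it was called as well, as in all 10 alternatives that tested it (log2 difference 1.46 to 2.54). Neural cells also had more Lef1 than other mesenchyme (1.5 ± 0.40, edgeR, adjusted p = 0.0183), but 3 of 9 alternatives lost that call. Here Lef1 passed the filter on low counts through its neural sums, and it was called with no filter too. In SMC Lef1 was at 2.01 and 0.412 CPM (LI) and 0.454 and 0.165 CPM (SI), on 3 to 15 UMIs each, with LI replicate 1 well above the other 3. The log2 difference of -1.06 ± 0.38 was not called (edgeR, adjusted p = 0.0786). It was called in 3 of 10 alternatives, at -1.58 without LI replicate 1 (adjusted p = 0.0380), -1.41 in G1 cells (0.0481) and -2.02 with doublets kept (0.00829), and was -0.63 without SI replicate 2.

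Tcf7 stayed between 5.07 and 13.7 CPM in all 16 sums of a cell group in a library. Its log2 differences from other mesenchyme were -0.22 ± 0.18 in mesothelial cells, -0.40 ± 0.24 in neural cells and 0.18 ± 0.08 in SMC, none of them called (edgeR, adjusted p between 0.157 and 0.368). The neural value was called in 1 of 11 alternatives, at -1.54 in G1 cells (adjusted p = 0.00401), and was -0.15 without SI replicate 1. Sp5 was nearly absent, with 17 UMIs in all kept cells, 10 of them in other mesenchyme, and was too low to be tested. Those UMIs amount to 0.109 CPM in other mesenchyme (95% exact Poisson interval 0.0522 to 0.200 CPM).

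**Figure D1:**
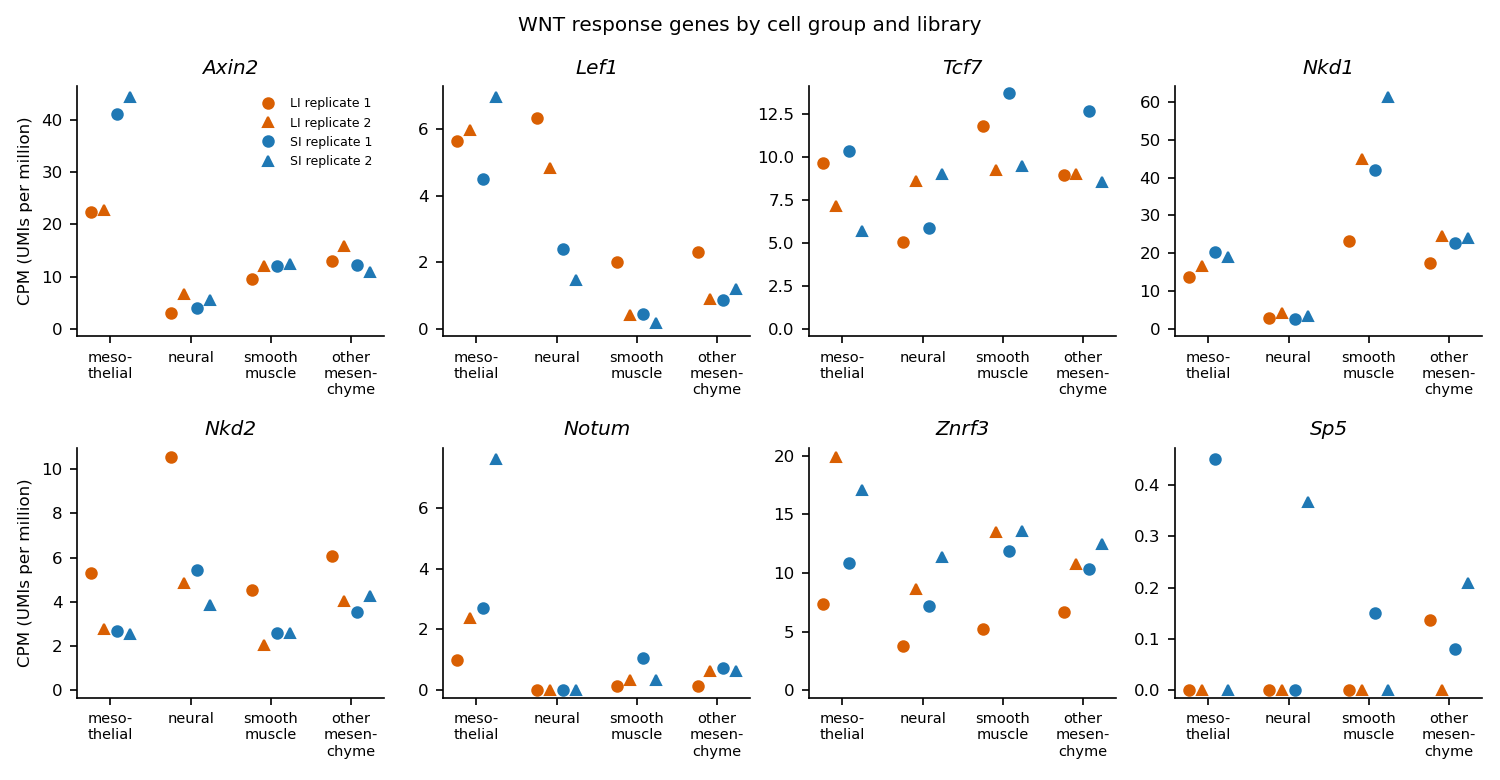
Level of each of the 8 genes (y axis, CPM, a linear axis of its own in each panel) in 4 cell groups (x axis), with 1 point per library; orange is LI, blue is SI, circles are replicate 1 and triangles replicate 2. Axin2 is highest in mesothelial cells (22.3 to 44.3 CPM), Nkd1 in SMC (23.2 to 61.3 CPM), and Notum is at 0 in neural cells.

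Counted together, 3 of the 6 genes tested differed between mesothelial cells and other mesenchyme, against 39.2% of all genes tested (2 higher, against 19.6%, and 1 lower, against 19.6%). For neural cells 3 of 6 differed against 48.9% (1 higher, against 23.5%, and 2 lower, against 25.5%). For SMC it was 2 of 7 against 26.3% (1 higher, against 12.8%, and 1 lower, against 13.4%). The sums of the 2 cell groups did not overlap for 2 genes in mesothelial cells, 2 in neural cells and 0 in SMC, against 24.6%, 37.7% and 6.78% of all genes. These shares were close to those of all genes, and with this few genes they are not a result about the genes as a set. Lef1, counted as higher in mesothelial and in neural cells, passed the filter on low counts through the sums of those cells. The genes did not move as one. Mesothelial cells had more Axin2 and Lef1 and less Nkd1, SMC had more Nkd1 and less Nkd2, and neural cells had less Axin2 and Nkd1 and more Lef1. Of these calls, Nkd1 in mesothelial cells, Nkd2 in SMC and Lef1 in neural cells were each lost in some alternatives.

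**Figure D2:**
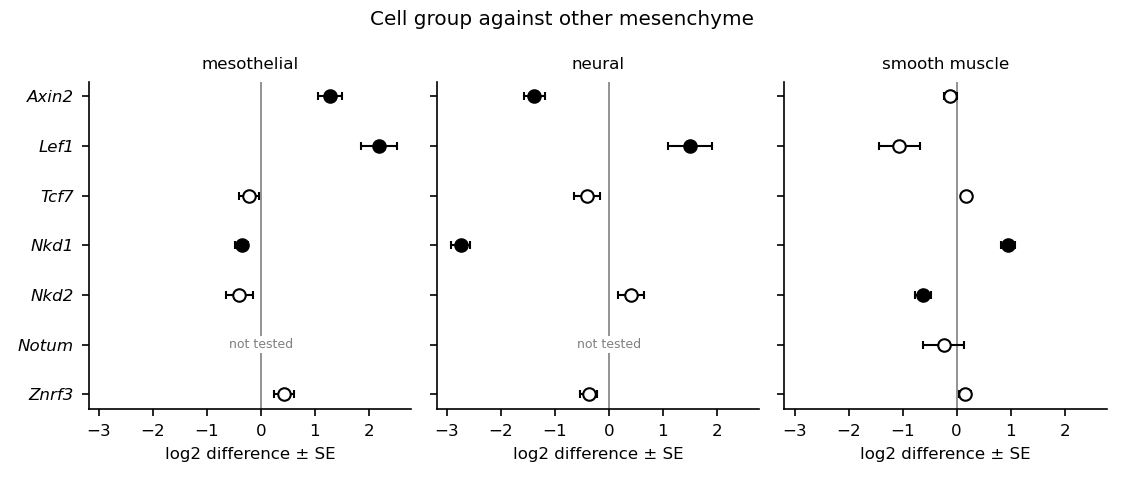
Log2 difference from other mesenchyme (x axis, points with SE as bars; 4 libraries, library as a block) for 7 genes (y axis) in mesothelial, neural and smooth muscle cells. Filled points had an adjusted p under 0.05, and Sp5 is left out because it was not tested; Nkd1 lies at -2.74 in neural cells and 0.96 in SMC.

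The share of cells with a UMI gave the same picture for Axin2. Because libraries differed in depth, each cell was thinned to 3000 UMIs and shallower cells were left out, 101 of the 1317 mesothelial cells. An Axin2 UMI was then found in 6.07% (95% Wilson interval 4.38 to 8.36) and 8.81% (5.78 to 13.2) of LI mesothelial cells, and in 11.97% (8.56 to 16.5) and 10.6% (6.80 to 16.1) of SI mesothelial cells. The share was 3.63 to 4.54% in other mesenchyme and 0.627 to 1.87% in neural cells, the group with the lowest share. No group here is known to lack Axin2 and free RNA was not measured, so how much of the neural share is free RNA cannot be told. Neural cells had a median of 13202.5 UMIs per cell before thinning, against 6095 in mesothelial cells. Without thinning the mesothelial shares were 9.11 and 17.9% (LI) and 27.9 and 27.7% (SI).

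Nkd1 was found in 6.95 and 13.8% of LI SMC and in 11.8 and 17.1% of SI SMC after thinning. In neural cells its share was 0.627 to 1.53%. The LI and SI values of SMC overlapped. Among the 23 pairs of one of these genes with a cell group in which it was tested between regions, the shares of SI and LI did not overlap in 9, against 43.1% of such pairs over all genes tested. All intervals cover counting error only.

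**Figure D3:**
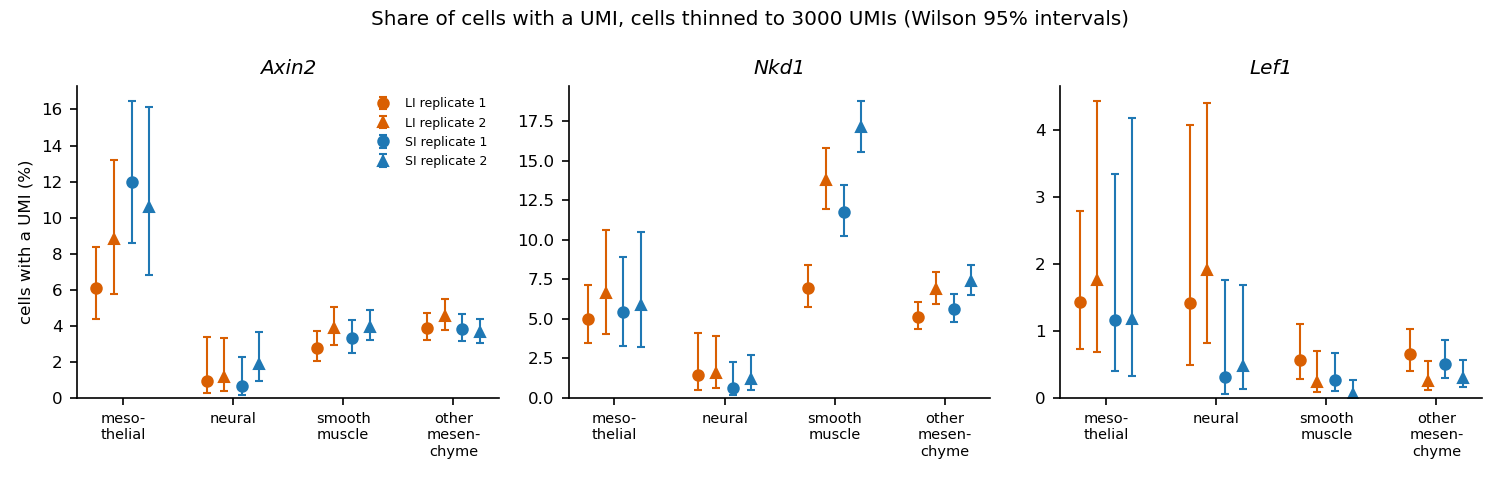
Share of cells with at least 1 UMI (y axis, percent) of Axin2, Nkd1 and Lef1 after thinning to 3000 UMIs per cell, in 4 cell groups (x axis); points are libraries (orange LI, blue SI, circles replicate 1, triangles replicate 2) and bars are 95% Wilson intervals. The SI mesothelial points for Axin2 (11.97 and 10.6%) sit above the LI points (6.07 and 8.81%), and the intervals overlap except between replicate 1 of SI and replicate 1 of LI.

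Most cells held none of the 8 transcripts at this depth. After thinning, no UMI of any of them was found in 75.7 to 82.0% of mesothelial cells, 72.6 to 83.4% of SMC, 82.4 to 84.5% of other mesenchyme and 88.5 to 93.7% of neural cells. At least 2 of the genes were found together in at most 4.71% of the cells of any group and library.

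The comparison of SI with LI asks whether the response genes differ between the 2 regions within a cell group. None of the genes was called in any of the 4 cell groups (edgeR quasi-likelihood test, 2 SI against 2 LI libraries). The background was 2.57% of all genes in other mesenchyme (0 of 7 genes tested here), 3.12% in SMC (0 of 5), 1.06% in mesothelial cells (0 of 5) and 0.310% in neural cells (0 of 6). At an unadjusted p under 0.05, 1 gene passed in SMC (15.9% of all genes), 1 in mesothelial cells (11%), 1 in neural cells (8.30%) and 0 in other mesenchyme (15.9%). DESeq2 called 0 as well in each group.

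The lowest adjusted p among these tests was that of Axin2 in mesothelial cells. It was higher in SI than in LI by 0.99 ± 0.25 on the log2 scale, with an adjusted p of 0.106 (edgeR), and it was called with no filter on low counts (0.96, adjusted p = 0.0366). Both SI sums lay above both LI sums, as did those of 16.6% of all genes tested in mesothelial cells, and the regions did not overlap in either direction for 41.5%. For 2 libraries against 2 the smallest p of an exact permutation test is 0.333, and the shares of mesothelial cells with an Axin2 UMI gave that value. Nkd1 also did not overlap between regions in these cells (0.45 ± 0.30, edgeR, adjusted p = 0.656; 0.08 in G1 cells).

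Axin2 did differ between cell groups in how it differed between regions. The SI over LI difference was larger in mesothelial cells than in other mesenchyme by 1.12 ± 0.24 on the log2 scale (edgeR, interaction term, adjusted p = 0.00453). In other mesenchyme Axin2 ran the other way without being called (-0.18 ± 0.20, edgeR, adjusted p = 0.730). It was the only 1 of 7 genes tested with such an interaction, against 4.72% of all genes. The call held when any 1 library was left out, in fits where the library left alone in its region is assumed to vary like the others, and was lost with DESeq2 (1.18, adjusted p = 0.0914) and when sums were thinned to an equal total (0.93, adjusted p = 0.256). For SMC and neural cells 0 of 7 and 0 of 6 genes had a called interaction, against 0.567% and 10.9% of all genes, with 2 and 0 genes at an unadjusted p under 0.05, against 10.5% and 25%. DESeq2 called 0 in both. The mesothelial interaction of Notum was 0.63 ± 0.93 (edgeR, adjusted p = 0.797), and it changed sign without LI replicate 2 and without SI replicate 2. Notum entered that fit through its mesothelial sums alone, so the value is a description only.

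Markers of other cells were present in the mesothelial sums. The 9 fibroblast markers summed to 1431 and 2304 CPM in LI and to 2538 and 3485 CPM in SI, with none of the 9 at 0. The 12 smooth muscle markers summed to 1054 and 695 CPM (LI) and 515 and 645 CPM (SI). The 10 mesothelial markers summed to 1673 and 2286 CPM (LI) and 2337 and 2479 CPM (SI), with 1 at 0 in each LI library. Markers of both fibroblasts and mesothelium were higher in SI, as Axin2 was, and their part in the Axin2 difference was not tested. Mesothelial cells were 10.4 and 5.11% of the LI cells and 5.29 and 2.77% of the SI cells.

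**Figure D4:**
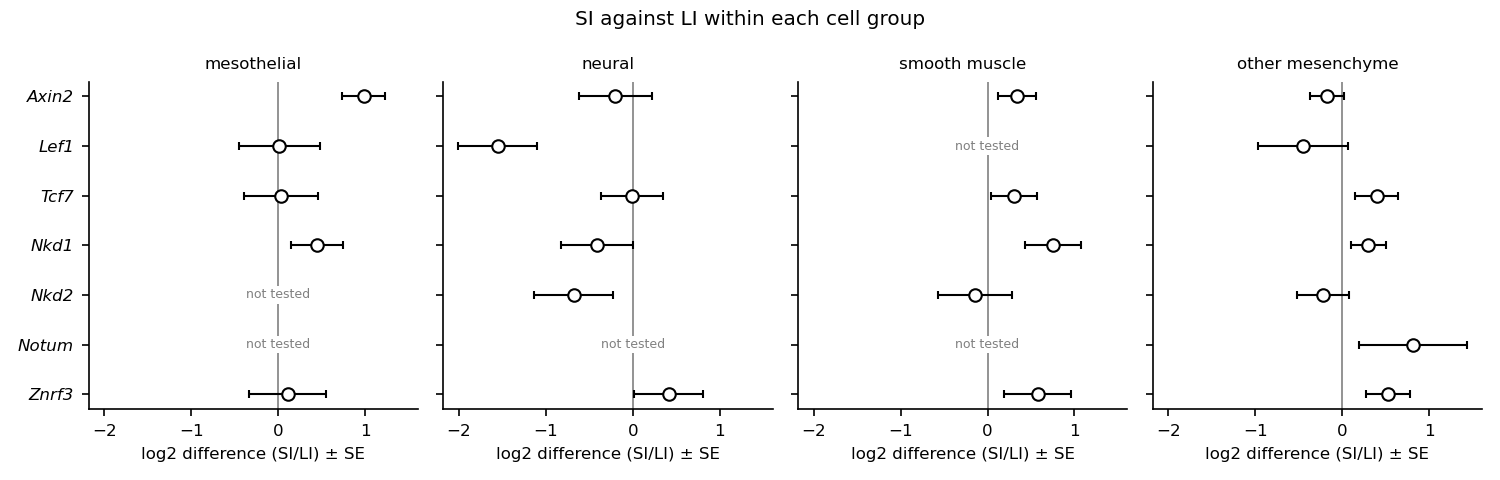
Log2 difference of SI against LI (x axis, points with SE as bars; 2 libraries per region) for 7 genes (y axis) within each of 4 cell groups. All points are open because none had an adjusted p under 0.05; the farthest from 0 are Lef1 in neural cells (-1.55) and Axin2 in mesothelial cells (0.99).

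Lef1 in neural cells was lower in SI, with 6.34 and 4.85 CPM in LI and 2.39 and 1.47 CPM in SI. The regions did not overlap, as was the case for 38.9% of the genes tested in neural cells, and the log2 difference was -1.55 ± 0.45 (edgeR, adjusted p = 0.268). These sums rest on 15, 27, 11 and 8 UMIs. Nkd1 in SMC showed a difference of 0.76 ± 0.32 (edgeR, adjusted p = 0.313), with regions that overlapped, and was called with no filter on low counts (0.78, adjusted p = 0.0116). The 12 smooth muscle markers of SMC summed to 1754 and 5045 CPM in LI and 5373 and 11424 CPM in SI, lowest and highest in the same libraries as Nkd1, and their part in the difference was not tested. Without LI replicate 2 the Nkd1 difference was 1.31 (adjusted p = 0.00304), so the shallow LI replicate 1 alone then stood for LI. Znrf3 in SMC behaved alike, at 0.58 ± 0.38 (adjusted p = 0.529) and 1.44 without LI replicate 2 (adjusted p = 0.00479). Without LI replicate 1 the differences in SMC were 0.37 for Nkd1 and 0.09 for Znrf3.

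In other mesenchyme the differences were small and uncertain. They were 0.30 ± 0.20 for Nkd1, 0.40 ± 0.25 for Tcf7, 0.53 ± 0.25 for Znrf3 and 0.82 ± 0.62 for Notum, with adjusted p (edgeR) between 0.356 and 0.577. With single libraries left out they ranged from 0.08 to 0.52, 0.06 to 0.68, 0.23 to 0.87 and 0.22 to 2.35 in that order. For Tcf7 the lowest value was without SI replicate 1 and the highest without SI replicate 2, and for the other 3 they were without LI replicate 1 and without LI replicate 2. Lef1 (-0.45 ± 0.52) and Nkd2 (-0.22 ± 0.30) changed sign without LI replicate 1. Of the 7 genes tested 1, Axin2, had no overlap between regions, against 50.8% of all genes, and in SMC 0 of 5, against 50.7%.

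Other mesenchyme was made of 5 clusters, whose levels are given as a description, since no cluster was tested against another. Axin2 reached its highest levels outside the mesothelium in cluster 6, whose leading genes were Anxa2, Wnt4 and Tac2, and in cluster 8, led by Foxd1 and Foxc2. In cluster 6 Axin2 was at 24.4 and 24.1 CPM in LI and at 14.4 and 10.5 CPM in SI. The direction was opposite to that in mesothelial cells, and the log2 difference of -0.94 ± 0.30 was not called (edgeR, adjusted p = 0.525; 0.369% of all genes called). In cluster 2 it ran the other way, with 10.2 and 13.97 CPM in LI and 15.4 and 13.5 CPM in SI (0.36 ± 0.24), and it was -0.23 ± 0.24 in cluster 1 and -0.41 ± 0.30 in cluster 3 (edgeR, adjusted p between 0.537 and 0.676). These 4 clusters were tested singly after the values had been seen, and 0 of the genes was called in any of them (3.58, 3.28 and 3.55% of all genes called in clusters 1, 2 and 3). At an unadjusted p under 0.05 there were 0, 2, 0 and 1 of the genes in clusters 1, 2, 3 and 6, against 17.6, 13.2, 17.9 and 6.04% of all genes.

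In cluster 8, which held 416 cells, Axin2 was at 17.7 and 38.7 CPM (LI) and 24.02 and 16.4 CPM (SI), a wide spread within each region. Clusters 1 (led by Scx), 2 (led by histone genes) and 3 (led by Adamdec1 and Bmp3) had 6.80 to 15.4 CPM. Lef1 in cluster 6 was at 5.50 and 5.16 CPM (LI) and 3.97 and 2.20 CPM (SI), while clusters 2 and 3 did not exceed 0.468 CPM in any library. Of the 34 Lef1 UMIs of other mesenchyme in SI replicate 2, 21 were in cluster 8, and of the 34 in LI replicate 1, 22 were in cluster 1. The Lef1 level of other mesenchyme thus came from different clusters in different libraries.

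**Figure D5:**
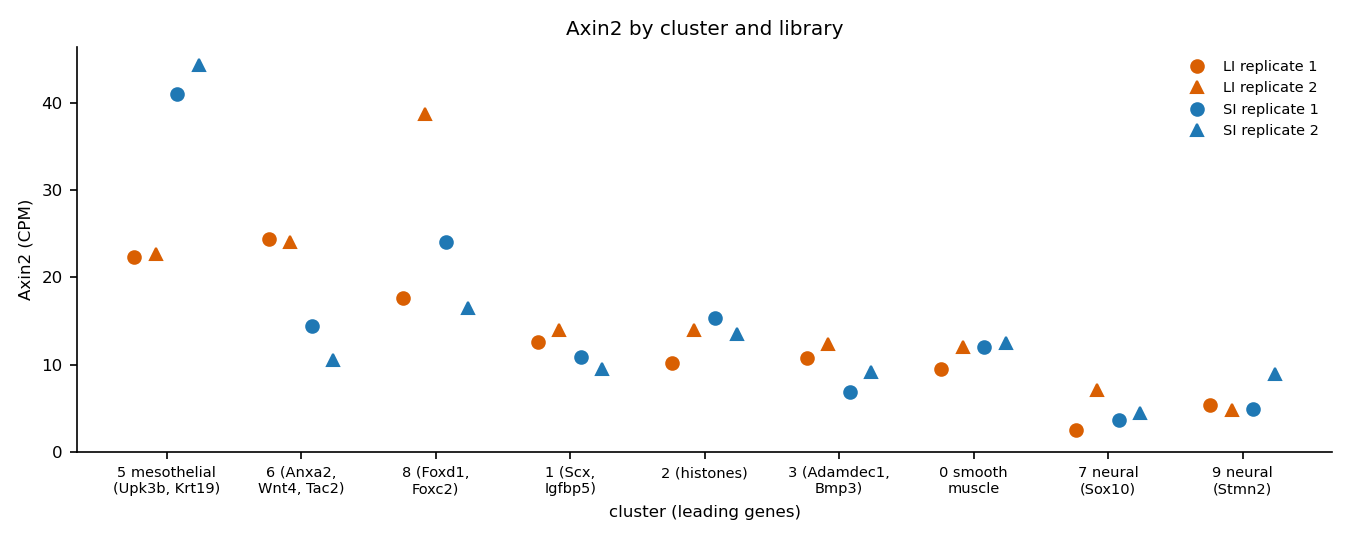
Axin2 level (y axis, CPM, from 0) in 9 clusters (x axis, with leading genes; the unnamed clusters are left out), with 1 point per library; orange is LI, blue is SI, circles are replicate 1 and triangles replicate 2. SI points lie above LI points in the mesothelial cluster (41.0 and 44.3 against 22.3 and 22.7 CPM) and below them in cluster 6 (14.4 and 10.5 against 24.4 and 24.1 CPM).

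Genes with a pattern most like each of these were looked for over the 16 sums (Pearson correlation of log2(CPM + 1), 8682 genes with a mean of 10 CPM or more). Axin2 was most like Marc2 (r = 0.968), Dap and St3gal2, and Nkd1 most like Pygl (0.986), Lpp and Traf5. Lef1 was nearest to Tox3 (0.925), Trf and Sra1, and Notum to Rbbp8 (0.952), Copb2 and Arl1. Tcf7 had no close match, with Map2k6 at 0.811 followed by Pde9a and Cdadc1. The nearest to Znrf3 were the mitochondrial transcripts mt-Co2 (0.963) and mt-Cytb and then Ccny, and to Nkd2 D10Wsu102e (0.932), Bud31 and Zcchc17. The sums share libraries and cell groups, and LI replicate 1 stood lowest for Znrf3 and highest for Nkd2 throughout, so these values describe the patterns only. Among the 8 genes, Axin2 and Notum were the most alike (0.871) and Nkd2 and Znrf3 the most opposed (-0.861).

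The genes that send or modify WNT signals were counted from lists of the pathway. R-spondins, secreted proteins that strengthen WNT signals by removing Znrf3 and Rnf43 from the membrane, were called between regions in 3 of the 4 cell groups. Beside all the list counts between regions stand the shares of all genes called, 2.57% in other mesenchyme, 3.12% in SMC, 1.06% in mesothelial cells and 0.310% in neural cells. In other mesenchyme 3 of 5 R-spondin and receptor genes tested were called, with Rspo2 lower in SI (-4.79 ± 0.45, edgeR, adjusted p = 0.00227) and Rspo1 (2.01 ± 0.21, adjusted p = 0.00303) and Rspo3 (1.42 ± 0.20, adjusted p = 0.0120) higher. Rspo1 and Rspo3 were higher in SI in mesothelial cells too (1.35 ± 0.23 and 1.86 ± 0.28, adjusted p = 0.0149 and 0.00920), where 2 of 3 tested were called. The same pair made up the 2 of 4 called in SMC (2.40 ± 0.24 and 1.80 ± 0.26). In neural cells 0 of 2 were called.

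Of the WNT ligands, 2 of 7 tested were lower in SI in other mesenchyme, Wnt16 (-4.46 ± 0.38, edgeR, adjusted p = 0.00191) and Wnt5a (-1.06 ± 0.20, adjusted p = 0.0389). In mesothelial cells 2 of 6 were called, Wnt4 higher (2.01 ± 0.33) and Wnt5a lower (-1.28 ± 0.21) in SI, both at an adjusted p of 0.0129. Wnt16 in SMC (-4.86 ± 0.30, 1 of 6) and Wnt5a in neural cells (-2.08 ± 0.32, 1 of 4) were also lower in SI. Wnt5a is best known as a ligand that acts without β-catenin.

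Among secreted antagonists, Sfrp1, which binds WNT proteins outside the cell, was the only one called, and it was higher in SI in other mesenchyme (2.52 ± 0.23, 1 of 8 tested), SMC (2.51 ± 0.21, 1 of 6) and mesothelial cells (1.45 ± 0.27, 1 of 5), and 0 of 3 were called in neural cells. Of the receptors and co-receptors 0 of 15 were called in other mesenchyme, 0 of 12 in mesothelial and 0 of 11 in neural cells, while Fzd10 was lower in SI in SMC (-3.08 ± 0.44, 1 of 15). No cytoplasmic or nuclear effector was called between regions in any group (0 of 20, 20, 18 and 19 tested in other mesenchyme, SMC, mesothelial and neural cells). The median log2 difference of the effectors was -0.18, -0.20, -0.21 and 0.0012 in that order, beside 0.0060, 0.0080, 0.0061 and -0.0035 for all genes tested.

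A further 14 target genes were listed, and 6 to 8 of them were tested between regions in each group. In SMC, 2 of 7 tested were called, Twist1 (-1.16 ± 0.19) lower and Tnfrsf19 (1.73 ± 0.31) higher in SI, against 3.12% of all genes. In mesothelial cells 1 of 7, Ccnd1 (-1.40 ± 0.29), the gene of cyclin D1, was lower, against 1.06%. In other mesenchyme 0 of 8 and in neural cells 0 of 6 were called. The interaction of region and mesothelial cells was called for 2 of 7 of them, against 4.72% of all genes, and was negative for Ccnd1 (-2.15 ± 0.21, edgeR, adjusted p = 2.20e-07) and positive for Fgf9 (1.86 ± 0.25, adjusted p = 2.55e-05), as it was for Axin2.

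Between cell groups more of the pathway genes were called, as were more genes at large. Against other mesenchyme 39.2% of all genes were called in mesothelial cells (19.6% higher and 19.6% lower). In mesothelial cells 5 of 7 WNT ligands tested were called against other mesenchyme, 3 higher and 2 lower, among them Wnt2b (4.42 ± 0.28) and Wnt9a (3.26 ± 0.21) higher and Wnt5a (-1.18 ± 0.09) lower. Rspo1, the 1 called of 4 R-spondin and receptor genes tested, was higher by 2.86 ± 0.14 and the antagonist Sostdc1 by 4.48 ± 0.27 (2 of 7 antagonists called, 1 higher and 1 lower). Of the WNT receptors 8 of 13 were called, 5 higher and 3 lower, and of the effectors 6 of 20, 2 higher and 4 lower. Of the 7 further target genes tested 5 were called, 4 higher and 1 lower, with Tnfrsf19 (3.05 ± 0.22), Fgf9 (4.48 ± 0.38) and Kremen1 (0.89 ± 0.22) higher; these adjusted p values (edgeR) lay at 0.00981 or below.

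In neural cells 48.9% of all genes were called against other mesenchyme, 23.5% higher and 25.5% lower. Of the ligands tested 5 of 6 were lower and 0 higher, of the R-spondin genes 3 of 4 lower, of the receptors 9 of 14 lower and 2 higher, of the antagonists 3 of 6 lower and of the effectors 11 of 20 lower and 6 higher. They included the antagonist Dkk2 (-6.13 ± 0.17), Rspo1 (-5.65 ± 0.30) and Wnt5a (-4.26 ± 0.24). Among the 7 further target genes tested 4 were higher and 2 lower, of which Twist1 was lower (-5.96 ± 0.17) and Ccnd1 higher (3.77 ± 0.31).

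In SMC 26.3% of all genes were called against other mesenchyme, 12.8% higher and 13.4% lower. Of the ligands 3 of 6 were called, Wnt4 (-2.06 ± 0.18) and Wnt11 (-1.25 ± 0.18) lower and Wnt5a (0.37 ± 0.06) higher. Of the receptors 4 of 14 were called, 2 higher, among them Fzd5 (0.85 ± 0.19), and 2 lower, Lrp5 (-0.57 ± 0.12) and Ror1 (-0.38 ± 0.10). All 4 R-spondin and receptor genes tested were called, 3 of them higher, among them Lgr4 (0.41 ± 0.07) and Rspo1 (0.39 ± 0.10), while Rspo3 was lower (-0.37 ± 0.09). The antagonists Dkk2 (-0.31 ± 0.06) and Sfrp2 (-0.39 ± 0.09) were lower (2 of 6), and of the effectors 1 of 20 was higher and 2 were lower. Of the 7 further target genes tested 5 were called, 4 higher and 1 lower, with Myc, a growth regulator, higher by 0.68 ± 0.04, Fgf9 by 0.68 ± 0.10 and Tnfrsf19 by 0.97 ± 0.19.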

How the data were processed

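The deposited tables hold raw UMI counts per gene and cell barcode, made by the authors with Cell Ranger 3.1.0 on mm10 per the labels, whose processing notes also name Seurat 3. The study's methods give a cell-level test, and libraries were compared here instead. Cells with at least 1000 detected genes and under 10% mitochondrial UMIs were kept, and the cells with the highest Scrublet scores (scanpy 1.11.5) were removed at 0.8% per 1000 cells, 183 to 348 per library, because the automatic cutoff marked only 1 to 6. Libraries were integrated in Seurat 5.3.0 on the 2000 most variable genes without Hox and WNT pathway genes (46 left out), with cell cycle scores regressed out, 30 components and Louvain resolution 0.3.

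A cluster was called mesothelial, smooth muscle or neural when at least 3 of its 10 leading genes by fold were markers of that class and none was of another, and other mesenchyme when no leading gene marked a class outside the mesenchyme and at least 3 fibroblast markers were found in at least 10% of its cells. This rule was set after the clusters had been seen. The genes described and the pathway lists were chosen with earlier results of these data known. From each list the 3 called genes with the smallest adjusted p were eligible to be named, and as most alike the 3 genes with the highest correlation.

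UMI counts were summed per library and cell group and tested with edgeR 4.0.16 (R 4.3.3; TMM, filterByExpr, quasi-likelihood F test), with Benjamini-Hochberg adjustment over all genes tested and a call at an adjusted p under 0.05. Cell groups and interactions were tested with the library as a block, and SE is the size of the log2 difference divided by the square root of F. DESeq2 1.42.0 was an alternative. Alternatives covered normalization, filter, doublets, resolution, cell cycle, depth and each left-out library. The tests were checked on simulated data. Libraries held 31630548 to 62886525 UMIs before filtering. Replicate libraries differed by more than sampling noise (chi-square per degree of freedom 2.99 to 37.2). Nothing ties a library to separate litters beyond the 2 experiments, so p-values measure the spread between libraries.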

Additional observations from a re-analysis of the deposited data

Results flagged for a closer look

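One result met a rule for a closer look, because a test of the difference itself set 2 cell groups apart. The SI over LI difference of Axin2 was larger in mesothelial cells than in other mesenchyme by 1.12 on the log2 scale (SE 0.24; edgeR interaction term, adjusted p = 0.00453), with both SI libraries above both LI libraries in mesothelial cells and both below in other mesenchyme. Over 11 alternatives the value lay between 0.93 and 1.39 and the adjusted p between 0.000136 and 0.256, and 9 of them kept the call. Groups of 2 libraries are too small to look for single libraries that stand apart.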

How the results depend on the processing

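The number of genes called between regions was 0 in each cell group and rose to 1 in SMC (Nkd1) and 1 in mesothelial cells (Axin2) with no filter on low counts. The replicate numbers are shared by the regions but the labels do not say that they mark an experiment, and same-numbered libraries deviated together with correlations of 0.22 to 0.37 over only 2 pairs; with the replicate block, 1 gene was called in SMC (Nkd1, 0.80, adjusted p = 0.0251), 1 in mesothelial cells (Axin2, 0.98, adjusted p = 0.00305) and 0 in the other 2 groups. The count of genes called in SMC against other mesenchyme fell from 2 to 1 with DESeq2 and with thinned sums. It rose to 3 with doublets kept. In mesothelial cells the count rose from 3 to 5 with doublets kept and to 4 with no filter. Both higher counts include Notum, which the main fit did not test and whose mesothelial sums were highest. So does the count of 3 without LI replicate 1. The mesothelial count fell to 2 with DESeq2, with thinned sums and in G1 cells. In neural cells it moved from 3 to 2 with thinned sums (0 higher) and to 4 with no filter, and the 3 called in G1 cells were all lower, Tcf7 among them, while Lef1 was too low to be tested there. The mesothelial interaction fell from 1 to 0 with DESeq2 and with thinned sums. Leaving out 1 library at a time gave 0 to 2 genes between regions in SMC, 0 to 1 in neural cells and 0 in the other 2 groups, 1 to 3 genes in SMC, 2 to 3 in mesothelial and 2 to 3 in neural cells against other mesenchyme, and 0 to 2 (SMC), 1 (mesothelial) and 0 (neural) interactions; the library whose loss gave the 2 calls in SMC and the 1 in neural cells (Nkd2) was LI replicate 2, and SI replicate 1 for the 2 interactions. With single libraries left out, the log2 difference in other mesenchyme ranged from -1.06 to 0.36 for Lef1 and from -0.54 to 0.10 for Nkd2, the positive values being those without LI replicate 1. The Notum interaction in mesothelial cells, entered through the mesothelial sums alone, ranged from -0.31 to 1.37 over single left-out libraries around 0.63. It was below 0 with SI replicate 2 left out and at -0.02 with LI replicate 2 left out. The neural difference of Nkd2 turned from 0.42 to -0.040 in G1 cells. The number of gene and cell group pairs, of 32 in all, whose shares did not overlap between regions fell from 9 to 5 with thinning to 2000 UMIs and to 5 with doublets kept. The cause of these changes was not tested. Notum and Sp5 had few UMIs and mostly did not pass the filter on low counts.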
